A study of Mus musculus with 58 samples.

Results

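The genes described here encode the machinery that puts peptides on MHC class I molecules, together with the inducible subunits of the proteasome. They are 10 genes chosen by symbol, H2-K1, H2-D1, B2m, Tap1, Tap2, Tapbp, Psmb8, Psmb9, Psmb10 and Nlrc5, of 47643 genes counted in each library, and each symbol matched 1 Ensembl identifier. A class I molecule is a heavy chain, here H2-K1 or H2-D1, paired with beta-2 microglobulin (B2m). Peptides cut by the proteasome are pumped into the endoplasmic reticulum by the transporter Tap1-Tap2 and loaded with the help of tapasin (Tapbp). In cells exposed to interferon the catalytic subunits Psmb8, Psmb9 and Psmb10 replace Psmb5, Psmb6 and Psmb7 in the proteasome, and Nlrc5 is a transactivator of the class I genes. Microglia, the resident macrophages of the brain, hold little class I at rest and raise it under interferon and other inflammatory stimuli.

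The data are 34 libraries of mouse microglia in 8 groups, made by QuantSeq, which counts 1 tag near the 3′ end of each transcript. Primary microglia of wildtype mice were kept for 24 h with fibrils of full-length tau at 2 µg/ml (tau, n = 4) or with vehicle (n = 4). Adult microglia came from male PS19 mice, labelled P301S+ and 10.98 months old (n = 4), and from male NTG mice, of which 2 were 10.98 and 2 were 11.18 months old (n = 4). PS19 mice carry a human tau transgene driven by the prion promoter, which is active mainly in neurons. IkbkbCA microglia were Cx3cr1 CreERT2/+ and IkbkbCA F/F, so that Cre released a constitutively active IKKβ, the kinase that activates NF-κB, and their IkbkbWT controls were IkbkbCA F/F without Cre (n = 5 each). Ikbkb-/- microglia were Cx3cr1 CreERT2/+ and Ikbkb F/F, and their Ikbkb+/+ controls were Ikbkb F/F without Cre (n = 4 each). All cultures of both Ikbkb experiments, controls included, received 4-hydroxytamoxifen. Cre and the Cx3cr1 allele were present only in the IkbkbCA and Ikbkb-/- groups, so that their effect and that of the Ikbkb change cannot be told apart. Cultures were made from the cortex and hippocampus of newborn pups and shaken off mixed glia, and adult microglia were isolated with CD11b beads. The sources used here do not say which cultures came from separate litters, and p-values then measure the spread between libraries, which may be technical.

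Libraries held 1672052 to 8349128 counts. Microglial markers were detected in every group (10 of 10 genes). Of 7 T and NK cell markers 1 to 4 were detected per group, with Cd3e, Cd3g and Cd8a at 0 in all 8 groups. Ikbkb was lower in Ikbkb-/- than in Ikbkb+/+ microglia, with a log2 fold change of -1.21 ± 0.12 (SE, adjusted p = 6.34e-07), and each Ikbkb-/- library was below each control. In IkbkbCA it differed by 0.17 on the log2 scale, which is no check of the label, since the 3′ tag of the inserted kinase may lie outside the counted gene. Some libraries stood apart. Oligodendrocyte markers reached 4915 CPM (counts scaled to a common library size of 1e+06) in IkbkbWT 3 and 1763 CPM in IkbkbCA 3. T and NK cell markers summed to at most 8.6 CPM, in IkbkbWT 5. The Y-linked gene Ddx3y was at 155 to 173 CPM in Ikbkb-/- against 35.1 to 69.4 CPM in Ikbkb+/+, and at 1.15 and 2.04 CPM in IkbkbWT 4 and 5 against 143 to 177 CPM in IkbkbWT 1 to 3. The sex of the pups was not given. PS19 1, from a male by its label, had 177 CPM of Xist. The other adult libraries, also labelled male, had 31.1 CPM in PS19 2 and 26.4 to 31.1 CPM in NTG. PS19 3 and 4 had less, 4.31 and 1.80 CPM.

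Of the 10 genes, 7 lie in the MHC region of chromosome 17 (GRCm38). Tapbp lies at chr17:33915899-33929292, H2-K1 at chr17:33996017-34000347 and H2-D1 at chr17:35262730-35267499. Psmb9 (chr17:34181987-34187764), Tap1 (chr17:34187553-34197225), Psmb8 (chr17:34197721-34201454) and Tap2 (chr17:34203527-34216321) form a cluster between the heavy chains. B2m is at chr2:122147686-122153083, Nlrc5 at chr8:94434356-94527272 and Psmb10 at chr8:105935735-105938444. Tap1 and Psmb9 run in opposite directions and overlap at their starts, away from the 3′ ends that QuantSeq reads. Gm15821 and Gm20496, which overlap Tap2 on the other strand, had 0 counts in all 34 libraries, and 9330175E14Rik, opposite Nlrc5, had 0 to 12. Tapbp overlaps Zbtb22 on the same strand, which had 45 to 410 counts per library. H2-K1 and H2-D1 are closely related genes. In the last 500 bases of their transcripts, where these reads fall, 0.443% of the 50-base words of H2-K1 and 9.53% of those of H2-D1 were found in another gene, and 0% of those of the other 8 genes.

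The RefSeq promoter windows of GRCm38.p6, from 250 bases before to 50 after the start, gave entries for 8 of the 10 genes, without Tap2 and Nlrc5. Stretches from the heavy chain and B2m promoters are shown because their windows held the same kinds of motif. These 3 genes were called higher in 3 of the 4 comparisons. So were Tap1, Tapbp, Psmb8, Psmb9 and Psmb10, whose windows held none of the matches marked below. The capitals mark matches to the NF-κB consensus, to the IRF core AANNGAAA, and to TGACG followed 10 to 40 bases later by ATTGG, the arrangement of the X2 and Y boxes at which Nlrc5 complexes are known to act. The lines give H2-K1 at chr17:34000349-34000547 (minus strand) and B2m at chr2:122147487-122147685 (plus strand).
H2-K1: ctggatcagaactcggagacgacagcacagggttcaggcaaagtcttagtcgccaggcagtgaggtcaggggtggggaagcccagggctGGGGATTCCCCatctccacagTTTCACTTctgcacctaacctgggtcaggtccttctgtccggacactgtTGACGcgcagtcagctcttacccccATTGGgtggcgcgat
B2m: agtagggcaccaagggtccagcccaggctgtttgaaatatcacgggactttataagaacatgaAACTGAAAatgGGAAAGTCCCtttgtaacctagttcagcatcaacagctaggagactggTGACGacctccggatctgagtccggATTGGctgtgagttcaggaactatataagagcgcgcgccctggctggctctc
The same elements of H2-D1 were read at chr17:35262923-35262951 and chr17:35262993-35263022 (plus strand). These positions lie before the RefSeq start of H2-D1 but inside an exon of that gene in the GENCODE annotation. The elements are set beside those of H2-K1 and B2m.
H2-K1 NF-κB and IRF: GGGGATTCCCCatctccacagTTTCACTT
H2-D1 NF-κB and IRF: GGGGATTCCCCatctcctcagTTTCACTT
B2m IRF and NF-κB: AACTGAAAatgGGAAAGTCCC
H2-K1 TGACG to ATTGG: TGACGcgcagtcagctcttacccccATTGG
H2-D1 TGACG to ATTGG: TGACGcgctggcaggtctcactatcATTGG
B2m TGACG to ATTGG: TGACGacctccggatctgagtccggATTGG

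The element with the NF-κB and IRF matches differed by 1 of 29 bases between H2-K1 and H2-D1, and the element from TGACG to ATTGG by 7 of 30. Over the 139 bases that the 2 promoters shared without a gap, 91.4% were identical. Of all 32841 promoter windows, searched on both strands, 8.46% held the NF-κB consensus, 23.9% the IRF core and 0.965% the pair TGACG and ATTGG, and H2-K1, H2-D1 and B2m were the 3 of 8 windows that held each of them. The longer interferon-stimulated response element (ISRE), which contains the IRF core, was in the window of B2m and in 3.44% of all windows. Psmb8 had a match to the GAS motif TTCNNNGAA, present in 8.3% of windows. These are matches of letters in short windows and not measurements of binding.

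The level of each gene was compared across the 8 groups on 1 CPM scale set over all 34 libraries (34-library CPM), given as mean ± SD. The heavy chain H2-K1 was highest in tau, at 2147 ± 284 CPM, followed by IkbkbCA at 1802 ± 70.5, Ikbkb-/- at 840 ± 53.8 and PS19 at 629 ± 130. It was at 380 ± 18.6 in NTG, 318 ± 48.3 in Ikbkb+/+, 307 ± 97.3 in IkbkbWT and 224 ± 37.7 in vehicle. The tau, IkbkbCA and PS19 groups each stood clear of the next lower group, and the 4 control groups overlapped their neighbours. H2-D1 had its highest level in IkbkbCA, at 1550 ± 131 CPM, with tau at 1069 ± 122 and Ikbkb-/- at 1008 ± 101.4, which overlapped. It was at 581 ± 173 in PS19, 575 ± 127 in IkbkbWT, 497 ± 43.3 in Ikbkb+/+, 322 ± 54.2 in NTG and 287 ± 83.0 in vehicle. The order of the heavy chains thus differed at the top, where H2-K1 had tau before IkbkbCA and H2-D1 the reverse.

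B2m, the light chain common to all class I molecules, was at 5757 ± 918 CPM in IkbkbCA, 4697 ± 235 in Ikbkb-/-, 4250 ± 875 in tau and 3220 ± 1141 in PS19. Its controls were at 2878 ± 575 in NTG, 2373 ± 134 in Ikbkb+/+, 2343 ± 574 in IkbkbWT and 692 ± 50.7 in vehicle. Only vehicle stood clear of its neighbour in this order, with every vehicle library below every library of the other 7 groups. Psmb8 and Psmb9 were likewise clear of all other groups in vehicle. Levels across experiments also carry differences of age, isolation, culture, mouse line and cell makeup, which cannot be told apart from the groups. Microglial markers summed to 5072 to 6782 CPM in vehicle and to at least 10900 CPM in the other 7 groups. Astrocyte markers summed to 659 to 712 CPM in vehicle and 25.6 to 209 CPM in the Ikbkb cultures. The part of these markers in the low vehicle levels was not tested.

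The transporter subunit Tap1 was at 149 ± 30.7 CPM in tau, 98.1 ± 10.7 in Ikbkb-/-, 88.3 ± 17.7 in IkbkbCA and 53.6 ± 9.26 in PS19. It was at 41.0 ± 2.51 in NTG, 31.0 ± 9.38 in Ikbkb+/+, 27.6 ± 9.83 in IkbkbWT and 24.7 ± 2.87 in vehicle. Its partner Tap2 followed another order, from 98.7 ± 29.4 in IkbkbCA and 86.2 ± 19.3 in Ikbkb-/- through 65.0 ± 4.54 in Ikbkb+/+, 63.7 ± 14.4 in IkbkbWT and 60.2 ± 10.5 in NTG to 29.8 ± 24.8 in PS19, 18.4 ± 13.7 in tau and 9.47 ± 6.30 in vehicle. Tap2 had the highest variation within a single group, 82.9% (coefficient of variation) among the PS19 libraries, where PS19 2 held 14 counts. Its median over the groups was 26.2%, below the 35.2% of Nlrc5. Tapasin (Tapbp) was at 965 ± 155 CPM in tau, 369 ± 47.7 in IkbkbCA, 329 ± 47.4 in Ikbkb-/- and 305 ± 69.3 in PS19, and at 220 ± 22.2 in NTG, 160 ± 23.6 in Ikbkb+/+, 157 ± 20.2 in vehicle and 150 ± 23.9 in IkbkbWT.

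Of the inducible proteasome subunits, Psmb8 was at 396 ± 43.5 CPM in Ikbkb-/-, 328 ± 44.6 in IkbkbCA, 288 ± 42.4 in tau and 216 ± 13.1 in PS19. It was at 208 ± 20.7 in NTG, 194 ± 9.88 in Ikbkb+/+, 162 ± 40.6 in IkbkbWT and 47.1 ± 13.6 in vehicle. Psmb9 had the widest range, 19.4 times between the means of IkbkbCA, at 162 ± 31.0 CPM, and vehicle, at 8.34 ± 3.77. Between them were Ikbkb-/- at 153 ± 15.3, NTG at 83.6 ± 12.0, PS19 at 71.4 ± 42.6, IkbkbWT at 70.0 ± 20.0, Ikbkb+/+ at 69.1 ± 9.96 and tau at 65.0 ± 18.3. Tau libraries thus overlapped the control groups of the other experiments for Psmb9, and vehicle lay below all of them. Psmb10 had the narrowest range, 3.93 times, from 210 ± 21.8 CPM in tau to 53.4 ± 13.4 in vehicle, with Ikbkb-/- at 179 ± 21.5, IkbkbCA at 151 ± 21.03, PS19 at 118 ± 12.96, NTG at 116 ± 17.5, Ikbkb+/+ at 110 ± 11.8 and IkbkbWT at 87.2 ± 15.9. All 7 neighbouring pairs in that order overlapped.

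The transactivator Nlrc5 was at 11.8 ± 2.29 CPM in IkbkbCA, 11.1 ± 2.68 in Ikbkb-/- and 8.31 ± 2.05 in tau. In the other 5 groups it was at 3.25 ± 1.90 (IkbkbWT), 3.21 ± 1.07 (Ikbkb+/+), 2.14 ± 1.10 (vehicle), 1.33 ± 0.494 (PS19) and 0.958 ± 0.471 (NTG). The tau libraries were all above those of these 5 groups.

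**Figure D1:**
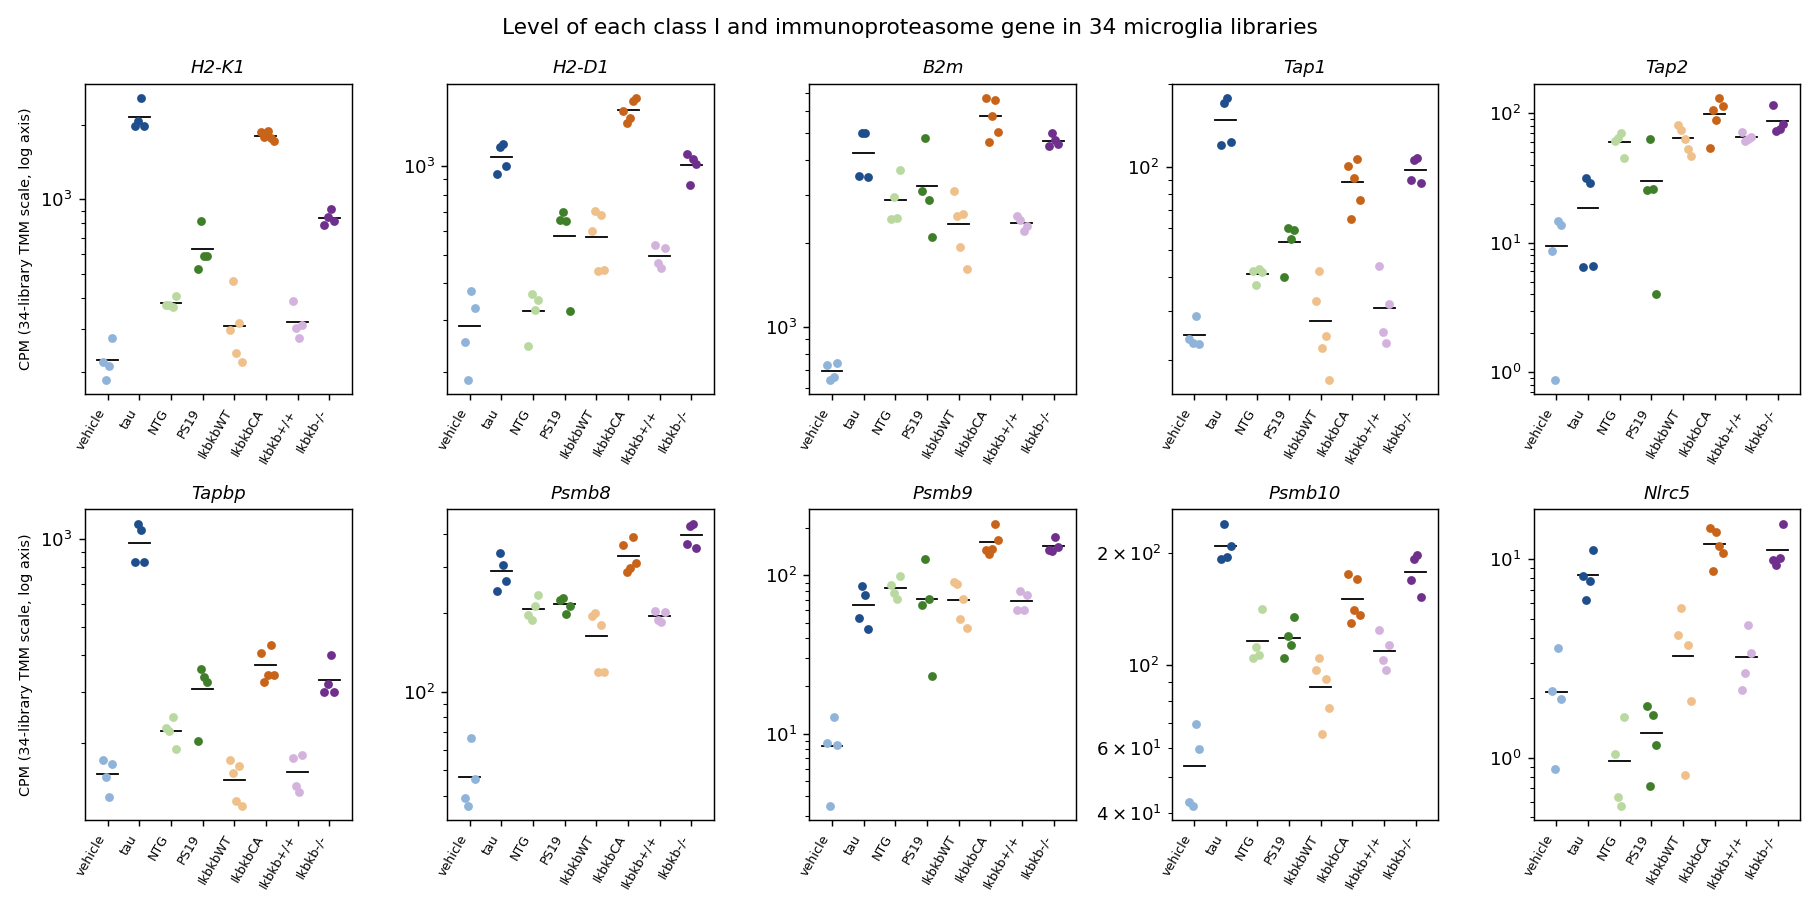
Level of each gene (one panel a gene; CPM on 1 scale over 34 libraries, log axis) in the 8 groups, with 1 point per library and a bar at the group mean. Vehicle is lowest for 8 of the 10 genes. The points of Tap2 spread widely in PS19 (4.03 to 63.6 CPM, PS19 2 lowest) and in vehicle (0.871 to 14.7 CPM).

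Tau fibrils were compared with vehicle to ask how tau changes the microglial transcriptome. Of the 10 genes, 9 rose and Tap2 did not pass the test, with a median log2 fold change of 2.65 against -0.01 over the 10408 genes tested, of which 29.9% were called and 14.5% called higher. For H2-K1 the tau libraries had 2179, 2167, 2236 and 2844 CPM and the vehicle libraries 237, 285, 202 and 228 CPM on the scale of this comparison. All 4 tau libraries lay far above the vehicle range, and the log2 fold change was 3.30 ± 0.15 (SE, adjusted p = 4.07e-16). H2-D1 went from 204 to 404 CPM in vehicle to 1031 to 1316 CPM in tau, with a log2 fold change of 1.94 ± 0.16. B2m had 3859, 3812, 5428 and 5551 CPM in tau and 783, 765, 696 and 704 CPM in vehicle. Tau 1 and 2 were alike and below tau 3 and 4, and all 4 were far above the vehicle libraries (log2 fold change 2.66 ± 0.15, adjusted p = 4.05e-14).

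Tap1 and Tapbp rose by 2.65 ± 0.17 and 2.66 ± 0.14 on the log2 scale under tau. Tap2 was at 7.21, 7.22, 34.1 and 32.0 CPM in tau and at 9.33, 14.02, 0.946 and 15.8 CPM in vehicle. Tau 1 and 2 lay within the vehicle range and tau 3 and 4 above it, and the log2 fold change of 0.98 ± 0.46 had an adjusted p of 0.111. Without tau 1 or without tau 2 it was 1.26 and 1.28, with adjusted p = 0.0397 and 0.0243. Without a filter on low counts Tap2 was called too (1.004, adjusted p = 0.00358), and with the share of reads outside genes as covariate it was -0.54 (adjusted p = 0.719). Among the proteasome subunits Psmb9 had 58.9, 50.5, 92.9 and 82.8 CPM in tau and 9.33, 8.74, 3.78 and 13.6 CPM in vehicle, where its counts were 8 to 43. It rose by 3.02 ± 0.26 on the log2 scale (adjusted p = 4.91e-10), Psmb8 by 2.66 ± 0.17 and Psmb10 by 2.01 ± 0.15. Nlrc5 rose by 2.02 ± 0.43 from 2 to 10 counts per vehicle library, and its adjusted p of 0.000663 became 0.0927 with that covariate, a share of 16.3% to 22.2% in tau and 23.3% to 29.1% in vehicle. The 9 genes that rose were also those whose groups did not overlap, which held in the same direction for 14.1% of all genes.

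Cell markers differed between these groups too. The 10 microglial markers summed to 10900 to 12640 CPM in tau and 5072 to 6782 CPM in vehicle, and 7 astrocyte markers to 352 to 411 and 659 to 712 CPM. Neuronal and endothelial markers were also lower in tau, at 55.1 to 63.5 against 100.6 to 131 CPM and 55.5 to 65.1 against 102 to 123 CPM. The 6 markers of border-associated macrophages summed to 896 to 1083 CPM in tau and 199 to 276 CPM in vehicle, with Lyve1 at 0 in tau and Cd163 at 0 in vehicle. T and NK cell markers were at most 1.09 CPM, and Ifng, which encodes interferon-γ, had 0 counts in all 8 libraries. The part of these markers in the class I values was not tested, and in bulk libraries fewer cells of a type and less RNA per cell cannot be told apart.

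PS19 and NTG microglia were compared to see the state of microglia in mice with tau pathology. Of the 9 genes tested 0 were called, by edgeR, where 0.0707% of 11323 genes were called and 977 had an unadjusted p under 0.05, and Nlrc5 was filtered out at 1 to 10 counts. The coefficient of variation between libraries, from the common dispersion of the fit, was 30.5%, against 10.9% to 23.5% in the other comparisons. A missing call here is thus no sign of absent change, and the paper reported more genes higher in PS19 at the same threshold. The heavy chains had the highest fold changes. H2-K1 was at 473, 546, 748 and 545 CPM in PS19 and at 363, 395, 349 and 356 CPM in NTG. Each of the 4 PS19 libraries was above each NTG library, as for 3.29% of all genes, and the log2 fold change of 0.66 ± 0.19 had an unadjusted p of 0.00368 and an adjusted p of 0.327. DESeq2 called H2-K1 (adjusted p = 0.0407), and limma-voom called 0 of the 9 genes. H2-D1 was at 595, 299, 637 and 602 CPM in PS19 and 238, 340, 344 and 317 CPM in NTG, a difference of 0.78 ± 0.24 (adjusted p = 0.402). PS19 2 alone lay within the NTG range, and without it the difference was 1.00 with an adjusted p of 0.0308. Without both PS19 1 and PS19 2, left out after the data were seen, H2-K1 (0.85, adjusted p = 0.0237) and H2-D1 (1.02, adjusted p = 0.0118) were the 2 genes called.

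B2m differed by 0.09 ± 0.25 between PS19 and NTG, Tap1 by 0.33 ± 0.19 and Tapbp by 0.41 ± 0.21, with adjusted p of 0.946, 0.665 and 0.620. The proteasome subunits were at -0.01 ± 0.17 for Psmb8, -0.04 ± 0.18 for Psmb10 and -0.29 ± 0.37 for Psmb9. Tap2 had the lowest value, -1.06 ± 0.51 (adjusted p = 0.598), with 23.2, 3.73, 58.1 and 24.3 CPM in PS19 and 59.2, 44.0, 60.4 and 67.8 CPM in NTG. PS19 3 was within the NTG range and the other 3 below it. Reads outside genes were 38.3% of PS19 2 and 19.9% to 22.1% of the other PS19 libraries, against 23.4% to 34.8% in NTG. Granulocyte markers summed to 366 to 2296 CPM in PS19 and 1315 to 1946 CPM in NTG, against at most 361 CPM in the cultures. Astrocyte markers summed to 870 to 1977 CPM in PS19, highest in PS19 3 and PS19 4 (1551 CPM), and to 653 to 994 CPM in NTG. Endothelial markers were at 333 to 658 and 253 to 418 CPM, and those of border-associated macrophages at 317 to 959 and 288 to 485 CPM. The part of these markers in the values was not tested.

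IkbkbCA was compared with IkbkbWT to ask what active NF-κB signalling does in microglia. The outcome for the class I genes was a rise of 9 of 10 genes, where 14.5% of 11697 genes were called and 7.31% were called higher, and Tap2 did not pass the test. The median log2 fold change was 1.29, against -0.05 over all genes tested. H2-K1 stood out among them, at 1864, 1748, 1761, 1874 and 1726 CPM in IkbkbCA and 290, 314, 475, 241 and 224 CPM in IkbkbWT. The IkbkbCA libraries lay within a narrow band and IkbkbWT 3 was the highest control, at 475 CPM, and the log2 fold change was 2.54 ± 0.18 (adjusted p = 5.93e-06). H2-D1 rose by 1.42 ± 0.14, from 445 to 718 CPM in IkbkbWT to 1389 to 1708 CPM in IkbkbCA. B2m had 6677, 6538, 4619, 5773 and 5053 CPM in IkbkbCA and 3019, 2552, 2556, 1960 and 1642 CPM in IkbkbWT. The lowest IkbkbCA library was above the highest control, and the log2 fold change was 1.29 ± 0.17 (adjusted p = 0.000367).

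Tap1 and Tapbp rose by 1.67 ± 0.23 and 1.30 ± 0.12 in IkbkbCA. Tap2 overlapped, with IkbkbCA 1 at 53.5 CPM within the control range of 47.4 to 79.3 CPM and the other 4 above it, at a log2 fold change of 0.62 ± 0.22 (adjusted p = 0.0848). Without IkbkbCA 1 it was 0.81 (adjusted p = 0.0128), and DESeq2 called it too (adjusted p = 0.0303). Psmb9 rose by 1.20 ± 0.19, Psmb8 by 1.007 ± 0.16 and Psmb10 by 0.78 ± 0.14. Nlrc5 had 84, 60, 47, 98 and 43 counts in IkbkbCA and 25, 18, 30, 5 and 17 in IkbkbWT, a log2 fold change of 1.88 ± 0.38 (adjusted p = 0.00567). The 9 genes called were those without overlap between the groups, as in the same direction for 6.38% of all genes.

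The controls of this experiment were not uniform. IkbkbWT 4 and 5, with low Ddx3y and with neuronal Tubb3 at 70.4 and 55.1 CPM, had the lowest levels of all genes but Tap2. Without these libraries 9 genes were called, and within the 3 sets of libraries alike in Mbp and Tubb3 each of the 10 genes was higher in IkbkbCA, H2-K1 by 1.89 to 2.95 on the log2 scale and Psmb10 by 0.28 to 0.95. The lowest difference was in the set of high oligodendrocyte RNA, with 1 library of each genotype, for all genes but Tap2. These sets were formed after the data were seen. In IkbkbCA Ddx3y was at 49.3 to 85.9 CPM and Xist at 150 to 279 CPM. Both lay between the values of IkbkbWT 1 to 3 and those of IkbkbWT 4 and 5. The sex makeup of the cultures may thus differ between the genotypes as well as within IkbkbWT. Granulocyte markers summed to 16.4 to 85.2 CPM in IkbkbCA and 5.91 to 11.02 CPM in IkbkbWT, with Mpo and Elane at 0 in both, and their part was not tested. The share of reads outside genes was 12.4% to 13.99% in IkbkbCA and 15.9% to 18.7% in IkbkbWT, without overlap. With this share in the fit 0 of the 10 genes were called, H2-K1 at 1.87 with an adjusted p of 0.139. Its part and that of the genotype cannot be told apart.

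Ikbkb-/- and Ikbkb+/+ microglia were compared to ask what loss of the kinase does. All 10 genes rose, where 14.6% of 11242 genes were called and 7.64% were called higher, with a median log2 fold change of 1.06 against 0 over all genes tested. H2-K1 was at 812, 824, 847 and 917 CPM in Ikbkb-/- and at 395, 312, 299 and 274 CPM in Ikbkb+/+. The groups lay far apart relative to their spread, with a log2 fold change of 1.42 ± 0.10 (adjusted p = 1.01e-08). H2-D1 rose by 1.04 ± 0.10, and B2m went from 2574, 2336, 2412 and 2206 CPM to 4641, 4603, 5042 and 4736 CPM, a log2 fold change of 1.00 ± 0.08. Tap1 had the highest fold change, 1.74 ± 0.16, at 93.2, 88.3, 107 and 109 CPM against 44.7, 32.0, 25.0 and 22.9 CPM. Nlrc5 was next at 1.73 ± 0.25, from 6 to 35 counts in Ikbkb+/+ and 18 to 72 counts in Ikbkb-/-.

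Tapbp rose by 1.06 ± 0.11 in Ikbkb-/-, Psmb8 by 1.05 ± 0.09, Psmb9 by 1.16 ± 0.10 and Psmb10 by 0.73 ± 0.10. Tap2 had the lowest fold change, 0.40 ± 0.13 with an adjusted p of 0.0419, and its groups overlapped, with 119, 82.4, 72.7 and 76.5 CPM against 72.7, 65.3, 60.01 and 62.95 CPM. Ikbkb-/- 1 was apart from the other 3, and without it the log2 fold change was 0.25 (adjusted p = 0.109). The call was also lost without Ikbkb-/- 2 or Ikbkb+/+ 2, 3 or 4, at 0.37 to 0.41, and under total-count scaling (0.37, adjusted p = 0.0609). The other 9 genes did not overlap, as in the same direction for 9.44% of all genes. Ddx3y did not overlap between the genotypes either, and Xist was at 5.65 to 10.4 CPM in Ikbkb-/- against 243 to 401 CPM in Ikbkb+/+. With Ddx3y as a covariate 0 of the 10 genes were called, H2-K1 at 0.79 (adjusted p = 0.119), B2m at 0.80 (0.0825) and Tap2 at -0.044 (0.975). The sex makeup of the cultures and the genotype cannot be told apart here. Endothelial markers summed to 168 to 221 CPM in Ikbkb-/- and 67.6 to 131 CPM in Ikbkb+/+, with Cldn5 at 0 in Ikbkb-/-, and markers of border-associated macrophages to 956 to 1375 and 1876 to 2143 CPM. Oligodendrocyte markers summed to 488 to 575 CPM in Ikbkb-/- and 268 to 378 CPM in Ikbkb+/+, and granulocyte markers to 7.51 to 11.1 and 7.04 to 361 CPM, with Ikbkb+/+ 1 the highest. The part of these markers was not tested.

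**Figure D2:**
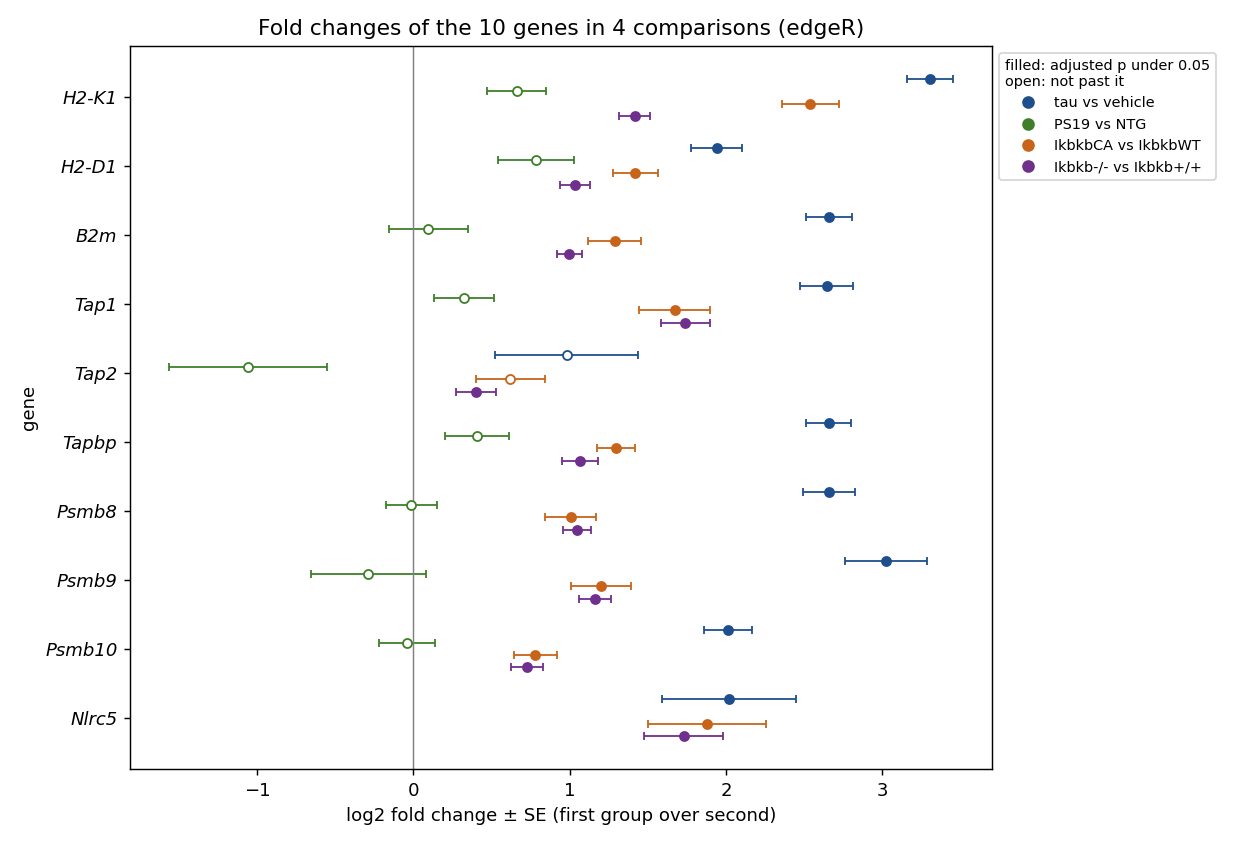
Log2 fold changes with standard errors (x axis) of the 10 genes (y axis) in the 4 comparisons, filled where the edgeR adjusted p is under 0.05. All values for tau, IkbkbCA and Ikbkb-/- lie above 0, tau reaches 3.30 for H2-K1, and the PS19 values, all open, run from -1.06 to 0.78.

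Whether the effects differed was tested as an interaction in fits of 4 groups, which share no control libraries between the effects. Between IkbkbCA and Ikbkb-/-, opposite changes of the same kinase, 1 of the 10 genes differed, H2-K1, where 3.12% of 12352 genes were called and 2.23% called higher. Its log2 fold change was higher by 1.14 ± 0.23 in IkbkbCA (adjusted p = 0.00686). For H2-D1 the difference was 0.40 ± 0.19 (adjusted p = 0.324), for B2m it was 0.31, and for the other 7 it was between -0.02 and 0.25, with standard errors of 0.19 to 0.50 that do not exclude differences of that size. The effect of tau in culture was higher than that of PS19 in 8 of the 10 genes, from 1.07 ± 0.31 for H2-D1 to 3.22 ± 0.52 for Psmb9, where 8.07% of 11852 genes were called and 4.42% called higher, and Tap2 and Nlrc5 did not pass. H2-D1 lost this call under total-count scaling (0.95, adjusted p = 0.0802) and without vehicle 1 (1.02, 0.0756) or vehicle 3 (1.01, 0.0508). These groups differ in age, isolation and culture as well as in tau.

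Between tau and IkbkbCA the effect over the matching control differed for 5 of the 10 genes, each larger under tau, where 9.42% of 12841 genes were called and 5.86% called higher. They were Psmb9 (1.75 ± 0.37), Psmb8 (1.58 ± 0.26), B2m (1.30 ± 0.24), Tapbp (1.29 ± 0.19) and Psmb10 (1.16 ± 0.22). The 5 that did not pass were the heavy chains, the transporter subunits and Nlrc5, with H2-K1 at 0.69 (adjusted p = 0.0742) and H2-D1 at 0.45. H2-K1 was called without IkbkbWT 4 or 5 (adjusted p = 0.0473 and 0.0303), and Tap1 without IkbkbWT 5 (0.0242). The all-gene median of the tau comparison moved by -0.15 under total-count scaling, and the 5 genes were called under that scaling too. On the scale shared by all groups, mean B2m was 5757 CPM in IkbkbCA and 4250 in tau. Psmb8 (328 and 288) and Psmb9 (162 and 65.0) went the same way, but Tapbp (369 and 965) and Psmb10 (151 and 210) did not. Vehicle was below IkbkbWT for B2m (692 and 2343 CPM), Psmb8 (47.1 and 162), Psmb9 (8.34 and 70.0) and Psmb10 (53.4 and 87.2). Tapbp was at 157 and 150. The part of control levels and cell markers in the 5 differences was not tested.

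The heavy chains did not move in proportion. The log2 ratio of H2-K1 to H2-D1, a measure chosen after the values were seen and given without a test, was 1.00 ± 0.12 (SD) in tau and -0.33 ± 0.35 in vehicle. It was 0.22 ± 0.16 in IkbkbCA and -0.93 ± 0.20 in IkbkbWT, and -0.26 ± 0.19 in Ikbkb-/- and -0.65 ± 0.12 in Ikbkb+/+. In tau and IkbkbCA each library was above each of its controls. In the adult isolates it was 0.16 ± 0.53 in PS19 and 0.25 ± 0.25 in NTG, where PS19 2 reached 0.87 and PS19 1 was at -0.33.

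**Figure D3:**
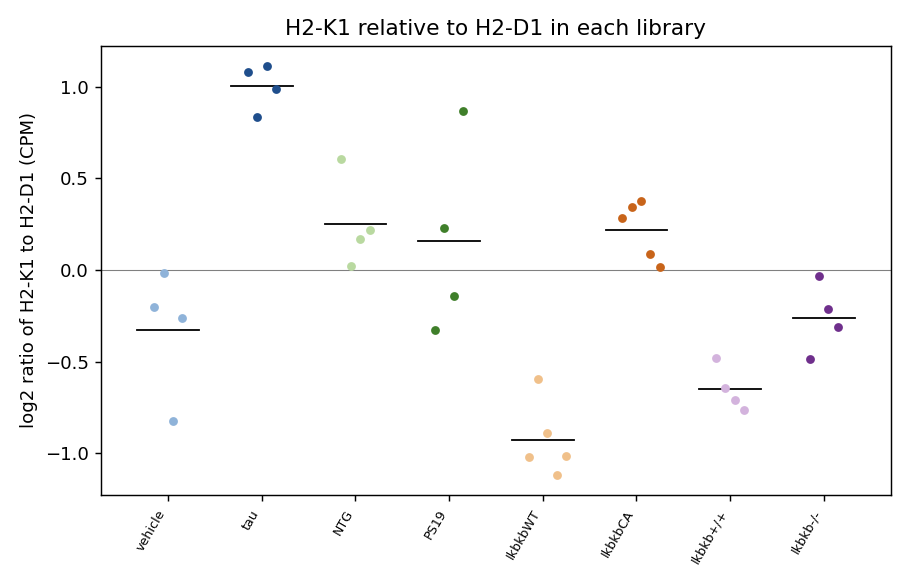
Log2 ratio of H2-K1 to H2-D1 in each library (y axis, from 34-library CPM) by group, with a bar at the mean. The tau libraries lie at 0.84 to 1.11 and the vehicle libraries at -0.82 to -0.02.

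The inducible catalytic subunits were set against the constitutive ones they replace, as log2 ratios of counts within a library, compared between libraries and not read as ratios of protein. Each of the 12 differences was tested by a two-sided exact permutation test over libraries with Benjamini-Hochberg adjustment over the 12. The ratio of Psmb8 to Psmb5 was 3.53, 3.56, 3.60 and 4.58 in tau and 1.20, 1.76, 0.99 and 1.44 in vehicle. The groups were far apart, with a difference of 2.47 (exact p = 0.0286, adjusted p = 0.0429, n = 4 each), and p = 0.0286 is the smallest that 4 against 4 can give. For Psmb9 to Psmb6 the tau difference was 2.87, and for Psmb10 to Psmb7 it was 1.83, with the same exact p.

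In Ikbkb-/- the 3 ratios rose by 0.88, 1.14 and 0.73, with every Ikbkb-/- library above every control (adjusted p = 0.0429 in the exact test for each). In IkbkbCA the ratio of Psmb8 to Psmb5 rose by 0.86, with IkbkbCA 3 at 1.99 just under the highest control, IkbkbWT 3, at 2.01. That of Psmb9 to Psmb6 rose by 1.13 (exact p = 0.00794, the smallest for 5 against 5), and that of Psmb10 to Psmb7 differed by 0.50 (exact p = 0.0556, adjusted p = 0.0741). In PS19 the differences were 0.08, -0.87 and -0.03, with exact p of 0.8, 0.171 and 0.914. PS19 1 and 2 had Psmb9 to Psmb6 ratios of -2.004 and -2.60, far below the NTG range of -0.81 to -0.38, whereas PS19 4 was just below it at -0.87 and PS19 3 within it at -0.48. Among the 4 control groups this ratio was highest in NTG, -0.62 ± 0.18 against -2.22 in IkbkbWT, -2.34 in Ikbkb+/+ and -5.04 in vehicle.

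**Figure D4:**
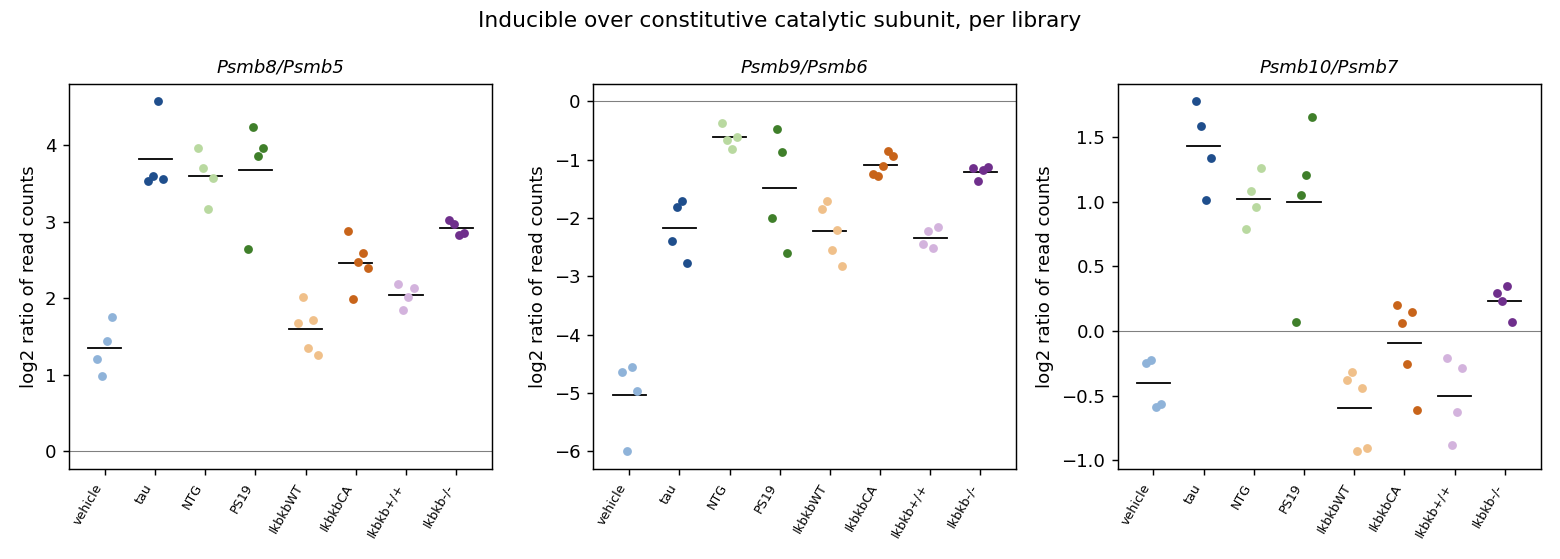
Log2 ratio of read counts (y axis) of each inducible subunit to the constitutive subunit it replaces, per library in the 8 groups, with bars at the means. Tau, IkbkbCA and Ikbkb-/- means lie above their controls in all 3 panels, and PS19 1 and 2 lie far below NTG for Psmb9/Psmb6.

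The rest of the pathway was described with 69 genes in 5 lists. Under tau 27 of the 57 tested rose and 0 fell, where 14.5% of all genes were called higher, with a median log2 fold change of 0.40 against -0.01 over all genes. In IkbkbCA 25 of 60 rose and 3 fell (7.31% of all genes called higher), with a median of 0.21 against -0.05. In Ikbkb-/- 14 of 58 rose and 5 fell (7.64% of all genes called higher), with a median of 0.09 against 0. In PS19 0 of 61 were called by edgeR and 2 by DESeq2, with a median of 0.06. Differences between the lists were not tested. Of the other class I heavy chains 6 of 7 tested rose under tau, led by H2-T24 (4.95 ± 0.46) and H2-Q7 (4.66 ± 0.35), 8 of 10 in IkbkbCA, led by H2-Q6 (5.56 ± 0.49) and H2-M2 (5.45 ± 1.24), and 5 of 8 in Ikbkb-/-, led by H2-T24 (2.55 ± 0.22) and H2-Q7 (2.50 ± 0.36). Several of these folds rest on a few control counts, 1 to 2 per vehicle library for H2-T24, 2 to 4 for H2-Q7, and 0 to 2 per IkbkbWT library for H2-Q6, so that their size depends on the prior count of the fit. H2-M2 had 0 to 6 counts per IkbkbWT library and spread widely in IkbkbCA, from 12 to 294 counts (2.05 to 54.5 CPM). Genes of the H2-Q and H2-T families share sequence, and their counts are uncertain.

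Fcgrt, the neonatal Fc receptor, which pairs with B2m but presents no peptide, was the heavy chain that fell, by 1.38 in IkbkbCA and 0.51 in Ikbkb-/- on the log2 scale, although it rose by 1.11 ± 0.20 under tau. Among the loading and trimming genes the peptidase Erap1 (1.36 ± 0.25) and the tapasin homologue Tapbpl (1.30 ± 0.32) led under tau, with 4 of 9 called higher. In IkbkbCA Erap1 and Tapbpl rose by 0.65 and 0.55, and Uggt1 fell by 0.25. Ggta1, which the list holds although it encodes a galactosyltransferase and not a loading or trimming factor, fell by 0.54. In Ikbkb-/- Tapbpl rose by 0.66, and 3 of 9 fell, with the chaperone Calr at -0.37 ± 0.10 and the disulfide isomerase Pdia3 at -0.32 ± 0.09 lowest.

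The proteasome activator subunits Psme1 and Psme2, which open the proteasome core, were called in each culture comparison, with Psme4 (0.47 ± 0.14) under tau the only other call in their list. Psme1 rose by 1.88 ± 0.14 under tau, 0.89 ± 0.16 in IkbkbCA and 0.79 ± 0.10 in Ikbkb-/-, and Psme2 by 1.93 ± 0.50, 0.81 ± 0.14 and 0.54 ± 0.14. Of the 14 constitutive proteasome subunits 4 rose under tau, 4 in IkbkbCA and 1 in Ikbkb-/-, with medians of 0.27, 0.24 and 0.09. Over all genes 14.5%, 7.31% and 7.64% were called higher, and the count in Ikbkb-/- was near this background. The highest were Psma6 (0.83 ± 0.15) and Psma5 (0.74 ± 0.26) under tau, Psma6 (0.52 ± 0.10) and Psma2 (0.35 ± 0.08) in IkbkbCA, and Psma1 (0.26 ± 0.08) in Ikbkb-/-. The median shift of the constitutive subunits was thus below that of Psmb8, Psmb9 and Psmb10 in each culture comparison.

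Transcription regulators of class I included 10 of 19 tested genes that rose under tau, 9 of 19 in IkbkbCA and 5 of 19 in Ikbkb-/-, where 14.5%, 7.31% and 7.64% of all genes were called higher. Irf7, a transcription factor of the interferon response, led in all 3, at 6.32 ± 0.19, 4.20 ± 0.38 and 5.07 ± 0.20. Stat2, a component of the type I interferon signalling complex, followed at 2.73 ± 0.11 in Ikbkb-/-. The NF-κB subunit gene Nfkb1 was the regulator that fell, by 0.45 in Ikbkb-/-, and it rose by 1.03 under tau and 0.58 in IkbkbCA. In PS19 the highest log2 fold changes of the lists were 2.91 ± 0.57 for H2-M2 (adjusted p = 0.107), 1.37 ± 0.67 for H2-Q7 (0.607) and 1.20 ± 0.28 for Irf7 (0.193).

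**Figure D5:**
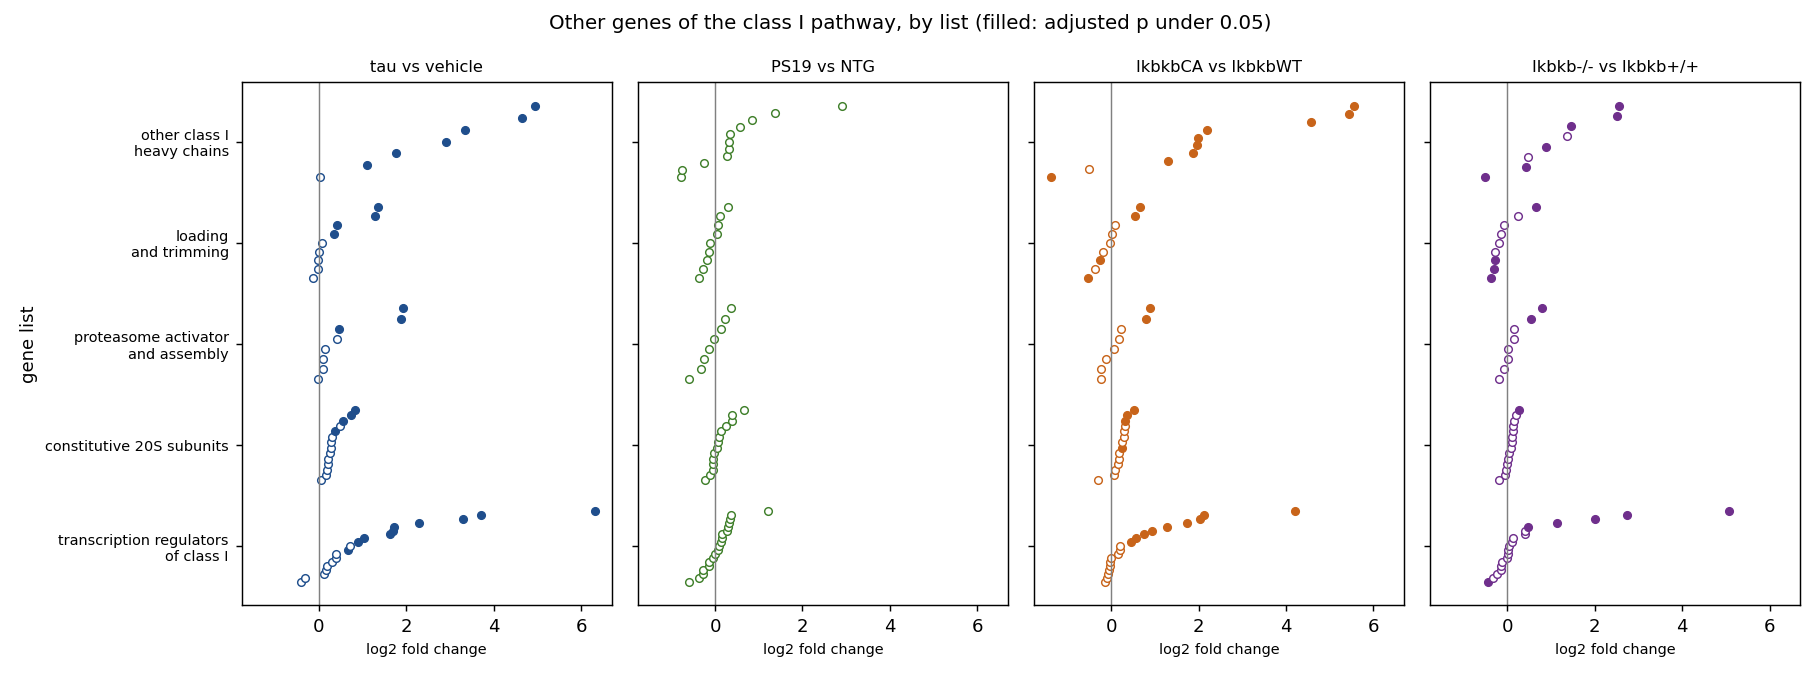
Log2 fold changes (x axis) of the genes of 5 class I pathway lists (y axis, spread within a list in order of size) in the 4 comparisons, filled where the edgeR adjusted p is under 0.05. Regulators run from -0.61 (Nfya in PS19) to 6.32 (Irf7 under tau), constitutive 20S subunits stay at or under 0.83, and no PS19 point is filled.

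The 10 genes were compared over the 34 libraries, each library set against the mean of the control group of its experiment, so that the values share controls and mostly reflect the groups. Pearson's r of each gene with the mean of the other 9 was 0.972 for B2m and 0.962 for Psmb8, and 0.509 for Tap2 (n = 34). Of 13651 genes compared, those most like the mean of the 10 were Dtx3l (0.959), Ly6e (0.957), Igtp (0.957), AW112010 (0.957) and Phf11b (0.955). Ly6e and Igtp are known as interferon-induced genes. Since they were chosen for this likeness over the same libraries, their own fold changes are not given as results. After the group means were removed, the highest correlations were between Psmb8 and Psmb10 (0.858) and between Tap2 and Psmb9 (0.857).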

How the data were processed

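Reads of 34 QuantSeq 3′ mRNA-Seq libraries were mapped by the authors with the Lexogen QuantSeq pipeline to GRCm38 with GENCODE annotation. The deposited tables hold whole-number counts per Ensembl gene without normalization. The study's methods name RSEM, but the tables look like HTSeq output. Reads with more than 1 alignment were not counted, which bears on class I paralogs. The 24 cortex samples were not analysed here. Symbols and coordinates came from GENCODE M21, which held 47224 of 47643 identifiers.

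Each comparison was fitted on the libraries of its 2 groups with edgeR's quasi-likelihood test (R 4.3.3, edgeR 4.0.16), after TMM normalization and filterByExpr with a minimum count of 10 and a total of 15, and each interaction on 4 groups. Genes with a Benjamini-Hochberg adjusted p under 0.05 over all genes tested were called. Standard errors were derived from the log2 fold change divided by the root of F. Subunit ratios (0.5 count added) were tested by exact permutation (SciPy). Named genes are the 10 genes, the called genes of highest and lowest fold change of each list (at most 2 each way) and the 5 genes most like the 10; 1 gene that this rule names is not reported here, and other genes are named as checks or were chosen after their values were seen. Members and lists were chosen with earlier results of these data known. The steps were tested on simulated counts. Alternatives were limma-voom 3.58.1, DESeq2 1.42.0, RLE, total-count scaling, other filters, covariates and leaving out each library. Depth was 1672052 to 8349128 counts per library. No 2 libraries of a group had identical counts (56 pairs), and each pair differed by more than sampling noise.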

Additional observations from a re-analysis of the deposited data

Results flagged for a closer look

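In 4 of 104 sets of 4 or 5 libraries (3.85%, where chance gives about 1 in 20) a single library lay far from the others. H2-K1 was at 2568 CPM in tau 4, with the next library at 2061, and the ratio of Psmb8 to Psmb5 was 4.58 (log2) in the same library, with the next at 3.60. H2-D1 was at 323 CPM in PS19 2, with the next at 649. Nlrc5 was at 15.1 CPM in Ikbkb-/- 2, with the next at 10.1. The number of genes called was 9 without tau 4, as with it, rose from 0 to 1 (H2-D1) without PS19 2, and went from 10 to 9 without Ikbkb-/- 2, where Tap2 lost its call (adjusted p = 0.0629).

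The effects of tau and PS19 differed, by the interaction test, for H2-K1 (2.56 on the log2 scale), H2-D1 (1.07, a call lost under 3 of 20 alternatives), B2m (2.48), Tap1 (2.22), Tapbp (2.16), Psmb8 (2.58), Psmb9 (3.22) and Psmb10 (1.97). Those of tau and IkbkbCA differed for B2m (1.30), Tapbp (1.29), Psmb8 (1.58), Psmb9 (1.75) and Psmb10 (1.16). Those of IkbkbCA and Ikbkb-/- differed for H2-K1 (1.14), with values of 1.04 to 1.35 over 22 alternatives.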

How the results depend on the processing

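Of the 10 genes, 9 to 10 were called in each fit without 1 library in tau, IkbkbCA and Ikbkb-/-, 0 to 1 in PS19, 1 in the interaction of IkbkbCA and Ikbkb-/-, 7 to 9 in that of tau and PS19 and 5 to 7 in that of tau and IkbkbCA. In PS19, DESeq2 called 1 gene (H2-K1), the fit without a count filter 1 (Tap2), and leaving out PS19 1 and 2 called 2. The call was lost for all genes with the share of reads outside genes in IkbkbCA (0 called) and with Ddx3y in Ikbkb-/- (0 called, Tap2 reversed at -0.044). Both covariates were separated by genotype, which leaves the fit little to compare. In the pathway lists, total-count scaling and limma-voom gave 1 gene lower under tau, total-count scaling 5 lower in IkbkbCA, and DESeq2 2 higher in PS19. The subunit ratios of PS19 ranged over -0.25 to 0.28 for Psmb10/Psmb7, -0.11 to 0.42 for Psmb8/Psmb5 and -1.21 to -0.50 for Psmb9/Psmb6 without 1 library, the last at -0.50 without PS19 2. No paired analysis was possible because the labels number the libraries singly and give no replicate number shared between groups. With the 3 sets of libraries alike in Mbp and Tubb3 as a covariate, chosen after seeing the data, 10 genes were called in IkbkbCA. Few counts limit Nlrc5 in every group and Tap2 and Psmb9 in vehicle.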
